A study of Mus musculus with 18 samples.

Results

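The decline of transcripts between levels 20 and 60 was compared between Sirt6 KO and WT bone marrow-derived mast cells (BMMC), to ask whether early transcripts persist longer in KO. The comparison is an interaction on the deposited read counts, (KO at 60 minus KO at 20) minus (WT at 60 minus WT at 20). It rests on 12 of the 18 libraries of the series, 3 in each of the 4 groups, and leaves out the untreated libraries. WT cells had the genotype Sirt6 flox/flox, that is Sirt6 alleles flanked by loxP sites. KO cells carried the same floxed alleles and in addition LysM-Cre, a Cre recombinase under control of the lysozyme M locus, which acts in myeloid cells, so both genotypes share the floxed alleles. Both were cultured from mouse femur and tibia marrow, and both were labelled as treated with LPS, the ligand of the receptor TLR4, at 20 and at 60. The labels give no unit for 20 and 60, and the series title speaks of signalling by FcεRI, the IgE receptor, rather than LPS. Each group has the numbers 4120, 414 and 6110, and the libraries of one genotype and number are called a culture here. Whether these numbers are separate animals is not said, and the p-values therefore reflect no more than the spread among these samples, which may be technical.

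Immediate early genes are switched on by kinase cascades without new protein synthesis, and their transcripts normally disappear soon after. Many of them carry AU-rich elements, which proteins such as tristetraprolin bind to recruit deadenylases, and many encode inhibitors of the pathway that induced them. In mast cells such transcripts include those of cytokines, chemokines and the cyclooxygenase that makes prostaglandins. A count at 60 holds RNA left from 20 as well as RNA made since, so the values below are differences in level and not in the rate of decay.

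Early transcripts were defined as genes that rose from level 0 to 20 over both genotypes together, by edgeR at an adjusted p under 0.05 and a log2 fold of at least 1. This definition used the untreated libraries and the libraries at 20, gave both genotypes equal weight, and used no library at 60. It selected 160 of 16193 genes tested (0.988%). All 160 passed the filter on low counts in the comparison of declines, where 16444 genes of 45777 were tested. Just inside the fold threshold were Ifrd1 (1.03), Socs3 (1.02) and Gmppb (1.01), and just outside it were Rassf5 (0.96), Mex3c (0.96) and Rhob (0.94). Of the 160, 57 also fell from 20 to 60 over both genotypes together and are called short-lived early transcripts. By annotation 130 of the 160 are protein-coding and 10 are lncRNA. Another 9 are snoRNA, 6 are miRNA genes and 4 are pseudogenes or transcribed pseudogenes, whose counts cannot be separated from those of host or parent genes. One has no biotype. The untreated libraries served only to choose these genes and, further below, to measure how much of a rise was left.

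For 109 of the 160 early transcripts a promoter window was at hand, 250 bases before to 50 bases after an annotated transcript start (RefSeq, GRCm38.p6). For 80 of the 109 a window lay at the outer end of the gene, for 29 the windows lay further inside it, and 21 had more than 1 window, any of which could hold a motif. The windows of 4 early transcripts are shown because they hold the kinds of motif searched for, and because the first pair had large and the second pair small values in the comparison of declines. Capitals mark the matched motif, and positions are counted from that transcript start as 0. In Il6 (chr5:30012864-30013163, plus strand), which encodes the cytokine interleukin 6, the capitals are an AP-1 motif at −249 to −243 and an NF-kB motif at −44 to −35. In Nr4a1 (chr15:101266596-101266895, plus strand), an orphan nuclear receptor gene, they are an NF-kB motif at −3 to 6. The start site of this Nr4a1 window lies 12944 bases inside the annotated gene, while those of the other windows shown lie at the gene's outer end. In Nfkbia (chr12:55492598-55492897, minus strand), which encodes the inhibitor IkB alpha, they are an NF-kB motif at −29 to −20. In Dusp1 (chr17:26508423-26508722, minus strand), a MAP kinase phosphatase gene, they are a cAMP response element at −143 to −136.
Il6: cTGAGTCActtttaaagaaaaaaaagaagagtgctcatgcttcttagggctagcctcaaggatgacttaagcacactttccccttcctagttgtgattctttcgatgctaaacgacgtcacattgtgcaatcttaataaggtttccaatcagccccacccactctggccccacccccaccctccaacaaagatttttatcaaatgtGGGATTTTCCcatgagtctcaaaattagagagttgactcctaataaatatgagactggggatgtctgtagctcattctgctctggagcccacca
Nr4a1: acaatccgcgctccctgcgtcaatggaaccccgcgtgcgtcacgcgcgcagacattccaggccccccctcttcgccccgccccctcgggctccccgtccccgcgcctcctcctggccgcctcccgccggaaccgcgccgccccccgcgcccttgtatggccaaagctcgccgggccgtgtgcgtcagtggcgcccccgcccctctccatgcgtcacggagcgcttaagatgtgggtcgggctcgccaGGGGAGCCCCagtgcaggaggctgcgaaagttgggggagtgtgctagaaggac
Nfkbia: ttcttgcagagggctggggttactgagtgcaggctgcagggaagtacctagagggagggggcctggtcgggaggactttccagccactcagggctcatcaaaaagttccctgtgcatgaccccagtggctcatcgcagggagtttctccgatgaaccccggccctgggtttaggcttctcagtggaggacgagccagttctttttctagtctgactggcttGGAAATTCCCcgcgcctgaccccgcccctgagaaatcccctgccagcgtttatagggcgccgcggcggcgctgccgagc
Dusp1: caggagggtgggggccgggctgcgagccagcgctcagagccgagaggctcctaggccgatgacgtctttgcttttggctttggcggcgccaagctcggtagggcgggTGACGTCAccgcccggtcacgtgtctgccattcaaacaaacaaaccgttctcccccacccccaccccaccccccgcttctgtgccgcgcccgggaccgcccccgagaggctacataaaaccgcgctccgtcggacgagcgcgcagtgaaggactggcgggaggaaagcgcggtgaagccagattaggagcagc

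The motifs were searched on both strands as TGACGTCA for the cAMP response element (CRE), TGANTCA for AP-1, and by the consensus forms of the NF-kB and serum response factor (CArG) sites. An NF-kB motif was present in a window of 20 of the 109 early transcripts (18.3%), against 6.07% of the 12030 genes tested that had a window. Of all 32851 windows 4.51% held it, a share of single windows and not of genes. CRE was present in 13 (11.9%, against 3.25% and 1.79%), AP-1 in 12 (11%, against 6.87% and 7.81%) and CArG in 3 (2.75%, against 1.50% and 1.63%). The median genotype difference in decline, in log2 units, was 1.00 for the 20 early transcripts with an NF-kB motif and 0.89 for the 89 without. It was 0.85 for the 13 with CRE and 0.90 for the 96 without. For AP-1 it was 0.95 for the 12 with the motif and 0.89 for the 97 without. For CArG it was 1.21 for the 3 with the motif and 0.90 for the 106 without.

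From 20 to 60, the log2 changes of most early transcripts lay higher in KO than in WT, but no single gene passed the test of the difference. Over the 160 early transcripts the median log2 change from 20 to 60 was −0.38 in KO and −1.28 in WT. The interaction value, KO minus WT, was positive for 152 of the 160 (95.0%), against 53.8% of the 16444 genes tested, with a median of 0.88 against 0.02. By edgeR with Benjamini-Hochberg adjustment, 0 of 16444 genes (0%) were called at 0.05, and the smallest adjusted p rounded to 1.00. At an unadjusted p under 0.05 edgeR had 130 genes (0.791%), of which 107 were higher in KO (0.651%). Of these 107, 43 were early transcripts, and 0 early transcripts reached that level with a value lower in KO. DESeq2 also called 0 genes and had 157 at an unadjusted p under 0.05. If no gene differed, evenly spread p-values would put a share of 0.05 of genes there, and the 0.791% by edgeR was below that. The 0 calls do not show that single genes were alike in the genotypes.

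The arms of the comparison did hold calls. In KO, edgeR called 40 genes lower at 60 than at 20 (0.243%) and 94 higher (0.572%), and in WT 41 lower (0.249%) and 26 higher (0.158%). Averaged over the genotypes it called 286 genes lower (1.74%), of which 57 were early transcripts, and 371 higher (2.26%). Early transcripts made up 17 of the 40 in KO and 32 of the 41 in WT. In KO 2 of the 94 genes called higher were early transcripts, and in WT 0 of the 26. The replicate numbers paired the KO libraries, and with the number as a block the KO calls rose from 134 to 360. With library size alone as scaling, 13 genes were higher and 10 lower in KO, 4 higher and 16 lower in WT, and 112 higher and 148 lower over both genotypes. Without number 4120, 414 or 6110, edgeR called 0, 7 and 0 genes in KO and 0, 2 and 15 in WT. An early transcript that passed in WT and not in KO is not thereby shown to differ between the genotypes.

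**Figure D1:**
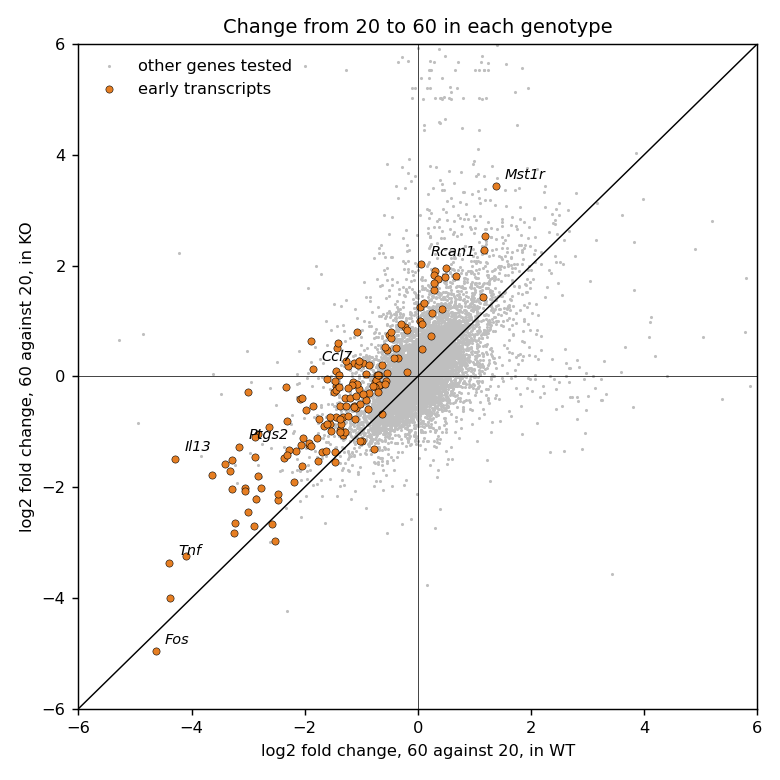
Log2 fold change from 20 to 60 in WT (horizontal) and in KO (vertical) for the 160 early transcripts (orange) and the other genes tested (grey, 22 of them beyond the axes). The line marks equal change, and 152 early transcripts lie above it.

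The pattern can be read gene by gene from the direction of the fitted changes. Both genotypes had values below 0 for 107 early transcripts, and in 99 of these the value nearer to 0 was that of KO. Another 32 were above 0 in KO and below 0 in WT, among them Ccl7, Map3k8, Gem, Coq10b, Frmd4b and Csf1. The opposite, below 0 in KO and above 0 in WT, was found for 0 early transcripts. The remaining 21 were above 0 in both, among them Rcan1, Nr4a3, Rgs16 and the receptor kinase gene Mst1r. The levels at 20 and at 60 both enter this value. The median KO minus WT difference over the 160, in log2(CPM + 0.5), was −0.11 at 20, where 101 were lower in KO, and 0.73 at 60, where 152 were higher in KO. At 20 the 3 KO libraries lay below the 3 WT libraries without overlap in 22 early transcripts (13.8%, against 9.04% of all genes) and above them in 2 (1.25%, against 8.53%). At 60 they lay above in 57 (35.6%, against 7.64%) and below in 1 (0.625%, against 7.89%). For genes such as Ovca2 (KO minus WT −0.69 at 20 and 0.26 at 60), Frmd4b (−0.68 and 0.40) and Map2k3os (−0.91 and 0.68) the difference at 20 was the larger part of the interaction.

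The same comparison was made within each number, as the difference between one KO and one WT culture on the log2(CPM + 0.5) scale (CPM, counts scaled by the TMM-adjusted library size). The median over the 160 early transcripts was 0.74 in number 4120, 1.20 in 414 and 0.65 in 6110, against values between −0.00444 and 0.0221 for all genes tested. Positive values were found for 135, 155 and 143 early transcripts, and 125 (78.1%) were positive in all 3 numbers, against 14.8% of all genes. The value was negative in all 3 numbers for 1 early transcript. In 48 early transcripts (30.0%) the changes of the 3 KO cultures lay above those of the 3 WT cultures without overlap, against 3.32% of all genes. The reverse order without overlap was found in 0 early transcripts, against 2.89% of all genes. Number 414 had the deepest declines, with medians of −0.67 in KO and −1.83 in WT, and number 6110 the shallowest, at 0.10 and −0.64. The spread between numbers was comparable to that between genotypes, and the WT culture of 6110 lay next to the KO culture of 414.

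**Figure D2:**
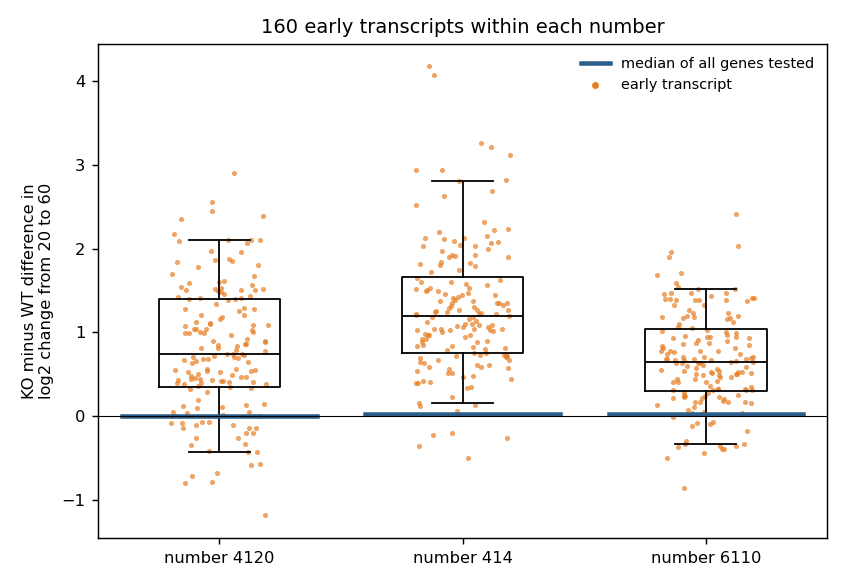
Difference between KO and WT in the log2 change from 20 to 60 for the 160 early transcripts (points) in each number; boxes give median and quartiles, whiskers the 5th and 95th percentiles, and the blue lines the median of all 16444 genes. The early medians of 0.74, 1.20 and 0.65 lie above the blue lines, which are near 0.

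The choice of the early transcripts used libraries at 20 that also enter the declines. When the early transcripts were called from the other numbers only and measured in the number left out, the medians were 0.82 in 4120 (73 of 83 positive), 1.38 in 414 (53 of 53) and 0.65 in 6110 (188 of 202). Early transcripts called in KO alone had a median interaction of 0.90 and those called in WT alone 0.98. These choices were made after the data were seen.

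The share of genes encoded in mitochondrial DNA among all counts ran from 4.27% to 41.7% over the 12 libraries, and it moved with some of them. In number 4120 the log2 share changed from 20 to 60 by −0.32 in KO and −1.93 in WT. It changed by 2.08 and 2.68 in 414, and by −0.30 and 0.37 in 6110. The KO minus WT differences of these changes were 1.62, −0.60 and −0.67. Libraries over 20% were WT at 20 of 4120, and WT and KO at 60 of 414. Without these 3 libraries the median over the early transcripts was 0.75, with 149 of 160 positive, and with the log2 share as a covariate it was 0.85. Total counts of the 12 libraries ran from 21468695 to 42265435, and 3 counts in the smallest correspond to 0.140 CPM, a limit that covers counting error only.

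The cells were checked against markers. Mast cell markers were high in every library, with Cpa3, a granule carboxypeptidase, at 5604 to 19369.9 CPM, and Fcer1a, the alpha chain of the IgE receptor, at 1281 to 3211 CPM. Of the 15 mast cell markers tested 5 had positive interaction values, with a median of −0.09. Neutrophil and precursor markers were low, with higher sums in KO. Their 12 tested members summed to between 17.3 and 68.2 CPM in the KO libraries and to between 5.66 and 19.2 CPM in WT, with KO above WT within each number at both levels. Ctsg, a granule protease gene, reached 44.4 CPM in KO of 4120, and S100a9 ran from 0 to 9.94 CPM. The median KO minus WT difference of the list was 1.27 at 20 (11 of 12 higher in KO) and 1.15 at 60 (12 of 12), and 4 of 12 had positive interaction values. The 9 macrophage and monocyte markers tested summed to between 153 and 338 CPM in KO and between 121 and 244 CPM in WT. Here too KO was above WT within each number at both levels. The sum over the 4 tested markers of dendritic, lymphoid and platelet lineages was lower in KO without overlap. It lay between 2315 and 3746 CPM in KO and between 4111 and 5685 CPM in WT. The single markers did not all go this way, since 1 of the 4 was higher in KO at 20 and 2 at 60. The part of these cells in the early transcripts was not tested. In bulk RNA a lower share of a cell type and less RNA per cell cannot be told apart. Sirt6 itself was counted at 15.2, 14.5 and 20.7 CPM in KO at 20 and at 10.5, 16.4 and 16.5 CPM in WT, in the order 4120, 414 and 6110 used throughout. Gene-level counts include transcript outside any deleted exons, so Sirt6 does not check the genotype labels. Its interaction value was −0.08 (SE 0.31). Lyz2, which encodes lysozyme M, stayed at or under 0.192 CPM in the KO libraries and lay between 0.995 and 2.95 CPM in WT.

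Among the transcription factors, the list of EGR and NR4A factors had the highest median of the early gene lists. All 9 genes of this list that were tested had positive interaction values, with a median of 1.22. Of the 9, 7 are early transcripts, namely Egr1 to Egr4 and Nr4a1 to Nr4a3. The other 2 belong to neither family. Nr4a1 (chromosome 15, 101253902 to 101274795 in GRCm38), whose window at an internal start site is shown above, was counted in KO at 3228, 2759 and 2084 CPM at 20 and at 1510.0, 865 and 1414 CPM at 60. In WT it was counted at 2814, 3534 and 3313 CPM and then at 363, 144 and 815 CPM. All KO libraries were above all WT libraries at 60, while at 20 the ranges overlapped. The log2 change was −1.09 in KO and −2.87 in WT, an interaction of 1.78 (SE 0.69). Within the numbers it was 1.86, 2.94 and 1.46. A two-sided exact permutation test over the 6 cultures gave p = 0.1, the smallest that its 20 splits allow. The paralogs Nr4a2 (1.37) and Nr4a3 (1.27) also had positive values. Nr4a2 overlaps another annotated gene, so its value is uncertain.

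The EGR zinc finger factors had values between 0.65 and 1.26. Egr2 and Egr3 had interaction values of 1.26 (SE 0.57) and 1.06 (SE 0.45), both positive in all 3 numbers, with exact permutation p = 0.2 for each. Egr1 was counted at 2534, 3145 and 2241 CPM in KO at 20 and at 606, 529 and 579 CPM at 60. The WT counts were 1953, 2654 and 2806 CPM and 329, 128 and 567 CPM. Egr1 fell in both genotypes (edgeR adjusted p = 0.041 in KO and 0.021 in WT), and the interaction was 0.65 (SE 0.58).

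FOS and JUN proteins pair to form AP-1, and their members differed among themselves. Fos, Jun and Junb had values within 1 SE of 0, while Fosb had 0.73 (SE 0.47) and 0.54, 1.03 and 0.68 within the numbers. Of the 8 genes of the AP-1 list 7 had positive interaction values, with a median of 0.57. Fos, the fastest declining of the named genes, was counted in KO at 868, 1175 and 628 CPM at 20 and at 33.0, 24.2 and 28.3 CPM at 60. Its WT libraries held 488, 979 and 578 CPM and then 27.6, 19.3 and 35.6 CPM. The genotypes overlapped at both levels. Fos fell in both genotypes (log2 −4.96 in KO and −4.63 in WT, edgeR adjusted p = 0.00039 and 0.00036), with an interaction of −0.33 (SE 0.46). Junb and Jun fell in both genotypes too, with interaction values of 0.23 (SE 0.51) and 0.42 (SE 0.52). The values were higher for Fosl2 (1.21) and for Atf3 (1.88), a stress-induced factor that was 0.80 in KO and −1.08 in WT. Fos was among the 8 early transcripts of 160 with a value below 0.

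Of the other immediate early genes 20 of 24 tested had positive values, with a median of 0.54. Ier2, which encodes a nuclear early response protein, was counted at 1286, 1912 and 1303 CPM in KO at 20 and at 172, 313 and 221 CPM at 60. Its counts in WT were 1271, 1177 and 1947 CPM and 188, 116 and 433 CPM. Ier2 overlapped between the genotypes at both levels and had an interaction of −0.10 (SE 0.61). Plk3, a stress-responsive kinase gene, had 1.02 (SE 0.37) and Per1, a repressor of the circadian clock, 0.98 (SE 0.37). For both, the changes of the KO cultures lay above those of the WT cultures without overlap. At 20 Plk3 and Per1 were lower in KO without overlap of the libraries, by −0.75 and −0.44 on the log2 scale, and at 60 the libraries overlapped. The value of Btg2, an antiproliferative factor, was 0.85 and became −0.02 without the 3 libraries with a mitochondrial share over 20%.

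**Figure D3:**
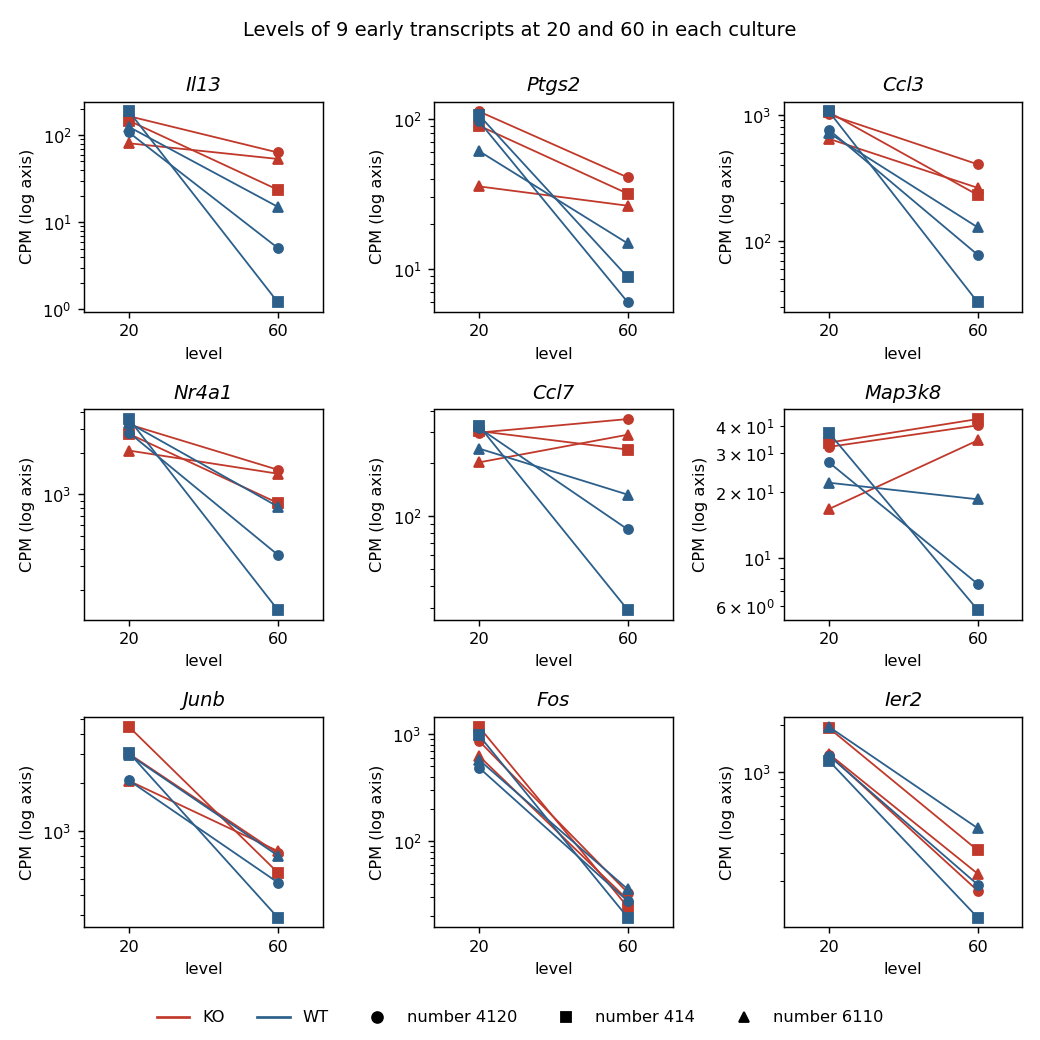
CPM (log axis) at 20 and 60 for 9 early transcripts, with 1 line for each culture in KO (red) and WT (blue) and 1 symbol for each number. For Il13, Ptgs2, Ccl3, Nr4a1, Ccl7 and Map3k8 all red points at 60 lie above all blue points, while for Fos and Ier2 the colours overlap at both levels.

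Secreted products came next. Of the cytokines and growth factors 16 of 18 tested had positive interaction values, with a median of 0.90, and of the chemokines 7 of 9, with a median of 1.13. Il13 (chromosome 11, 53631323 to 53634702) encodes interleukin 13, a type 2 cytokine that acts on epithelium and mucus production. It was counted in KO at 166, 147 and 80.9 CPM at 20 and at 63.4, 23.6 and 53.4 CPM at 60. In WT the counts were 108, 188 and 125 CPM and 5.07, 1.20 and 15.0 CPM. The ranges overlapped at 20, and at 60 the lowest KO library was above the highest WT library. Il13 fell in WT by 4.28 on the log2 scale (edgeR adjusted p = 0.028), and the KO value was −1.48 (edgeR adjusted p = 0.41). The interaction was 2.80 (SE 0.91), 2.90, 4.18 and 2.42 within the numbers, with exact permutation p = 0.1. It was the highest interaction value of the 160 early transcripts. Areg, a growth factor gene with 2.72, was next but held at most 2.33 CPM in any library.

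Tnf and Il6 encode inflammatory cytokines. Tnf was counted in KO at 885, 1343 and 777 CPM and then at 93.4, 76.4 and 122 CPM. The WT libraries held 349, 922 and 843 CPM and 19.1, 14.3 and 67.3 CPM. At 60 every KO library was above every WT library. The libraries overlapped at 20, but there too the KO mean was higher, by 0.59 on the log2 scale. Tnf fell in both genotypes (edgeR adjusted p = 0.025 in KO and 0.013 in WT), and the interaction was 1.03 (SE 0.76, exact permutation p = 0.2). Il6 in KO went from 218, 292 and 99.7 CPM to 129, 98.3 and 96.1 CPM. Il6 in WT went from 156, 257 and 106 CPM to 26.6, 17.0 and 40.7 CPM. All KO libraries at 60 were above all WT libraries, and the interaction was 1.71 (SE 0.60), 1.78, 2.32 and 1.32 within the numbers, with exact permutation p = 0.2. Lif, a cytokine of the interleukin 6 family, fell in WT (edgeR adjusted p = 0.031) and had an interaction of 0.54 (SE 0.69). Csf1, a macrophage growth factor, had 0.97 (SE 0.40) with no overlap of the cultures. At 20 Csf1 was lower in KO without overlap of the libraries, by −0.52 on the log2 scale. At 60 its KO minus WT difference was 0.50, and the libraries overlapped. Below 0 in this list were Il10 (−2.27) and Tnfsf9 (−0.04).

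The chemokines Ccl3, Ccl4, Ccl2 and Ccl7 attract monocytes and other leukocytes. Ccl7 (chromosome 11, 82045712 to 82047525) was counted in KO at 299, 305 and 202 CPM at 20 and at 358, 239 and 291 CPM at 60. In WT it stood at 319, 328 and 243 CPM and then at 83.9, 29.2 and 133 CPM. Ccl7 was higher at 60 than at 20 in 2 KO cultures and lower in 1, and it was lower in every WT culture. The interaction was 1.99 (SE 0.59), 2.18, 3.12 and 1.40 within the numbers. Ccl3 in KO went from 1002, 1045 and 644 CPM to 404, 231 and 263 CPM. Ccl3 in WT went from 759, 1059.8 and 715 CPM to 77.7, 32.7 and 128 CPM. Its KO and WT libraries overlapped at 20 and were apart at 60. Ccl3 fell in WT (log2 −3.41, edgeR adjusted p = 0.011), the KO value was −1.58, and the interaction was 1.83 (SE 0.59). Ccl4 (1.78, SE 1.01) overlaps Ccl3 in the annotation, so reads may be shared between them. Ccl2 had 0.69 (SE 0.45), and Cxcl2, a neutrophil chemoattractant, 1.37.

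Ptgs2 (chromosome 1, 150100031 to 150108234) encodes the inducible cyclooxygenase, the enzyme that starts prostaglandin synthesis. It was counted in KO at 112, 90.1 and 35.5 CPM at 20 and at 40.7, 31.7 and 26.4 CPM at 60. The WT counts were 96.4, 106 and 61.0 CPM and 5.99, 8.80 and 14.8 CPM. At 60 every KO library was above every WT library. Ptgs2 fell in WT (log2 −3.15, edgeR adjusted p = 0.014), and in KO the value was −1.27 (edgeR adjusted p = 0.24). The interaction was 1.89 (SE 0.59), 2.45, 2.03 and 1.59 within the numbers, with exact permutation p = 0.1. Hdc, which encodes the histamine-forming enzyme and is not among the early transcripts, had 1.21 (SE 0.71), again without overlap of the cultures. The other enzymes of eicosanoid synthesis on the list lay between −0.14 and 0.24.

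Signalling genes and their inhibitors formed the next group. Map3k8 (chromosome 18, 4331325 to 4352953) encodes a kinase that links TLR signals to the ERK pathway. In KO it was counted at 32.0, 33.5 and 16.6 CPM at 20 and 40.1, 42.9 and 34.3 CPM at 60. In WT it was counted at 27.2, 37.1 and 22.0 CPM and 7.57, 5.76 and 18.4 CPM. Every KO culture was higher at 60 than at 20 and every WT culture was lower. The interaction was 1.95 (SE 0.56), positive in all 3 numbers. Of 33 alternatives 2 moved this value by more than its SE. Without the WT library at 60 of number 6110, which had the highest Map3k8 count of its group, it was 2.62. Leaving out the WT library nearest to KO favours a larger value. The other 19 genes of the TLR4 complex and its adaptors lay between −0.74 and 0.80, and the median of all 20 was 0.06.

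MAP kinase phosphatases, Sprouty and SPRED proteins switch the ERK pathway off again. Of these MAPK feedback inhibitors 13 of 15 tested had positive values, with a median of 0.40. Dusp1, whose CRE is shown above, was counted in KO at 314, 407 and 177 CPM and then at 23.0, 12.3 and 21.0 CPM. The counts in WT were 207, 354 and 224 CPM and 11.6, 4.77 and 21.3 CPM. Dusp1 fell in both (edgeR adjusted p = 0.0076 in KO and 0.008 in WT), the genotypes overlapped at both levels, and the interaction was 0.38 (SE 0.66). Higher values were those of Dusp5 (1.21, SE 0.56), Dusp8 (1.43) and Spry1 (2.02), while Spred1 was at 0.01 (SE 0.48). Within the SOCS, CISH, PIM and RGS list, which holds inhibitors of cytokine and G protein signals, all 11 members were positive, with a median of 0.66. Among them Rcan1, an inhibitor of calcineurin, had 1.97 and was above 0 in both genotypes (log2 2.04 in KO and 0.06 in WT). Pim3, a survival kinase gene, fell in both genotypes (edgeR adjusted p = 0.047 and 0.011), with 0.66 (SE 0.32) and no overlap of the cultures.

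NF-kB is the main factor activated by TLR4, and it induces its own inhibitors. In that list 17 of 19 members tested were positive, with a median of 0.62. Nfkbid, an atypical nuclear IkB protein, was counted in KO at 1121, 1226 and 789 CPM and then at 409.7, 284 and 451 CPM. In WT the counts were 903, 1524 and 1112 CPM and 84.7, 82.5 and 315 CPM. The lowest of the KO libraries at 60 was below the highest of the WT libraries. Nfkbid fell in WT (edgeR adjusted p = 0.03), and the interaction was 1.42 (SE 0.66), with exact permutation p = 0.2. Nfkbia had 0.62 (SE 0.60), and Tnfaip3, a deubiquitinase that restrains NF-kB, 0.76 (SE 0.83). Among the subunits Rel was at 1.23, Nfkb1 at 0.52 and Rela at 0.37. Bcl3 (−0.32) and Icam1 (−0.03) were below 0.

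**Figure D4:**
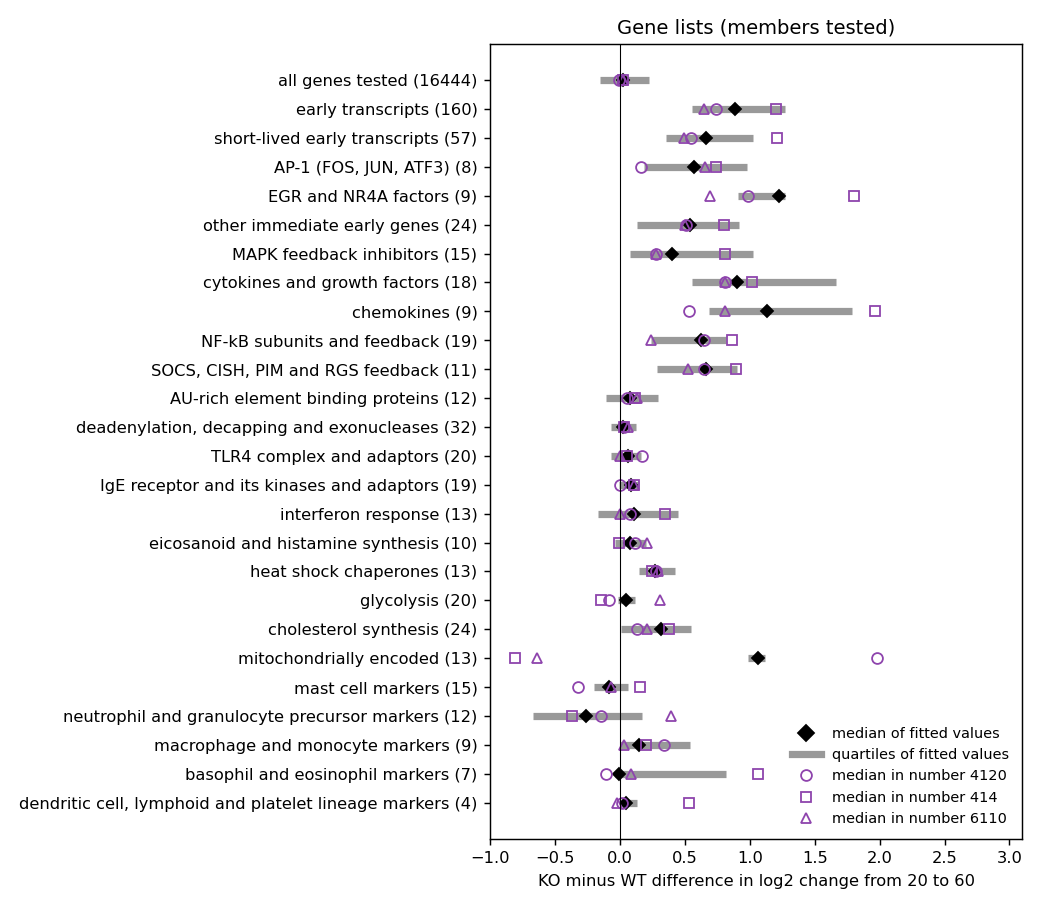
KO minus WT difference in log2 change from 20 to 60 for all genes tested, early transcripts and each gene list; diamonds are medians of the fitted values, grey bars their quartiles, and open symbols the medians within each number. Lists of early genes have medians from 0.40 to 1.22, while those of decay factors and receptor pathways lie between 0.03 and 0.08.

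The factors that degrade such transcripts were described in the same way. Proteins that bind AU-rich and related elements had positive values in 7 of 12, with a median of 0.08, against 0.02 over all genes. Zfp36, which encodes tristetraprolin, was counted in KO at 102, 162 and 100.3 CPM at 20 and at 11.9, 16.8 and 17.6 CPM at 60. Its WT counts were 55.3, 59.7 and 114 CPM and 6.58, 4.56 and 28.7 CPM. Zfp36 overlapped between the genotypes at both levels, and its interaction was −0.46 (SE 0.79), with exact permutation p = 0.9. The paralog Zfp36l2 had −0.15 (SE 0.33) and Zfp36l1 0.29 (SE 0.30). Of the 32 genes for deadenylation, decapping and exonucleases 21 were positive, with a median of 0.03. The members that stood out in it were Tob2 (0.90), Btg2 and Tob1 (0.61), which encode antiproliferative proteins that bind deadenylases, and all 3 are early transcripts. The 8 Cnot genes of this list, most of them subunits of the CCR4-NOT deadenylase complex, lay between −0.12 and 0.16, each within 1 SE of 0, and 6 of them were positive. Xrn1, the main cytoplasmic exonuclease, was at 0.01.

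The short-lived early transcripts were also considered apart, since they fell over both genotypes together. Their median change was −1.45 in KO and −2.31 in WT, and the median interaction was 0.66, with 51 of 57 positive. Within the numbers it was 0.54, 1.21 and 0.49. It was 0.39 (40 of 51 positive) without WT at 60 of 414, 0.43 (42 of 52) without KO at 20 of 6110, and 0.44 (37 of 44) without the 3 libraries with a mitochondrial share over 20%. Fewer genes met the definition with a number left out, 15 without 4120, 20 without 414 and 40 without 6110, with medians of 0.62, 0.55 and 0.99. The 6 negative members were Tagap1 (−0.53), Zfp36, Fos, Zfp36l2, Ier2 and Ier3. The remaining 103 early transcripts had a median of 1.01, with 101 positive. The negative ones of the 103 were Snora70 (−0.19), a small RNA gene that may share reads with its host, and Tnfsf9. The members named in this paragraph only were chosen after their values were seen.

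How much of the early rise was still present at 60 was measured against the untreated library of the same culture, as (60 minus 0) divided by (20 minus 0) in CPM. This was done for 108 early transcripts with a rise of at least 5 CPM in all 6 cultures. The median share left in KO was 56.6% in number 4120, 43.2% in 414 and 88.2% in 6110. In WT it was 15.7%, 6.43% and 43.4%. KO had the higher share in each number, while the KO culture of 414 and the WT culture of 6110 had nearly the same share. The share was higher in KO for 101, 104 and 101 genes in the 3 numbers, and for 95 of the 108 in all of them. A share over 100% is a level at 60 above that at 20, so further rise is mixed into these values. With the 5 CPM limit set in each culture alone, 111 to 128 genes were measured. Of these 29.9%, 20.5% and 45.9% in KO were over 100%, and 9.52%, 3.91% and 24.4% in WT. The mean of the 3 differences between the medians was 40.8 percentage points. This value moved with the minimum rise, to 47.65 points at 1 CPM and 31.9 points at 20 CPM, both chosen after the data were seen.

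**Figure D5:**
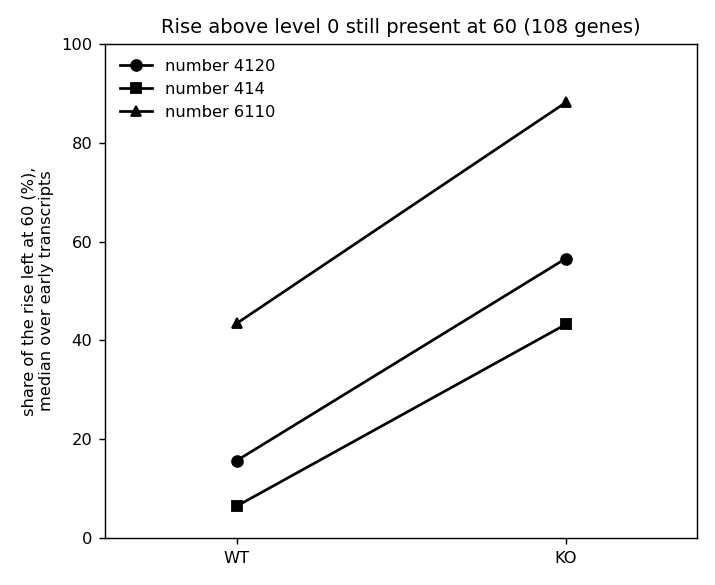
Median share of the rise above level 0 that was left at 60, in percent, over 108 early transcripts in the WT and KO culture of each number, with lines joining the cultures of a number. The 3 lines run upward from 15.7%, 6.43% and 43.4% in WT to 56.6%, 43.2% and 88.2% in KO.

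Outside the choice of early transcripts, genes averaging 5 CPM or more in some group were ranked by unadjusted p, and the first 10 were all higher in KO. They were Got1, Osgin2, Gem, Ovca2, Frmd4b, Coq10b, Pde12, Map3k8, Ccl7 and Map2k3os. For each of them the KO cultures lay above the WT cultures without overlap, as did 3.32% of all genes. A choice by small p on the same libraries favours that order, so the order adds no support. Got1 (chromosome 19, 43499752 to 43524605) encodes the cytosolic aspartate aminotransferase. It was counted in KO at 28.9, 27.5 and 24.9 CPM at 20 and at 75.1, 77.5 and 62.2 CPM at 60. In WT it was counted at 31.0, 25.4 and 26.2 CPM and at 37.1, 35.2 and 40.3 CPM. All 6 cultures were higher at 60, those of KO by more. Got1 rose in KO (log2 1.40, edgeR adjusted p = 0.0034), the WT value was 0.45, and the interaction was 0.95 (SE 0.22). Osgin2 (0.83) and Pde12, a nuclease of mitochondrial poly(A) tails (0.83), rose in KO as well (edgeR adjusted p = 0.0031 and 0.018). Got1, Osgin2 and Pde12 are not among the early transcripts.

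Gem, a small GTPase that inhibits calcium channels, was counted in KO at 6.83, 2.53 and 2.83 CPM and then at 8.04, 4.96 and 6.08 CPM. In WT Gem was at 6.11, 5.07 and 4.73 CPM and then at 1.60, 0.576 and 2.03 CPM. It was higher at 60 than at 20 in every KO culture and lower in every WT culture, with an interaction of 2.54 (SE 0.65). Coq10b, a coenzyme Q binding protein gene, had 1.21 (SE 0.33) and Frmd4b 1.08 (SE 0.29). Ovca2 (0.95) fell in both genotypes (edgeR adjusted p = 0.0076 and 0.00036). It started from a higher level in WT, 135, 101 and 111 CPM against 78.8, 75.2 and 60.2 CPM in KO. Ovca2 overlaps Dph1, and Map2k3os (1.54) is an antisense transcript. No source used here gives the strand of the libraries, and reads of overlapping or antisense genes cannot be told apart.

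In all, 91 genes were named by rule. Of these, 58 had positive differences in all 3 numbers and 2 had negative ones. Over the 16444 genes tested, 2430 (14.8%) were positive and 1786 negative in all 3. Of the 91, 10 were named for a small interaction p. These 10 are among the 58, which that choice favours. Of the other 81, 11 (13.6%) reached the smallest possible p of 0.1 in the exact permutation test, all with the 3 KO cultures above the 3 WT cultures, against 3.32% of all genes in that order. After Benjamini-Hochberg adjustment over the 91 the smallest p of this permutation test was 0.43, and with 3 cultures in each genotype the test cannot pass 0.05 for any gene.

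Lists outside the early response are given for comparison, and they were not all near the values of all genes. The IgE receptor and its kinases and adaptors had 14 of 19 positive, with a median of 0.08, and Fcer1a (−0.35) and Ms4a2 (−0.27) were below 0. Interferon response genes had a median of 0.11 (8 of 13 positive) and glycolysis 0.05 (13 of 20). Heat shock chaperones had a median of 0.27 (11 of 13), with the highest values for Hspa1b (1.23) and Hspa1a (1.09), near-identical copies whose reads may be shared. Cholesterol synthesis had a median of 0.32 (18 of 24). In it 15 genes (62.5%) were positive in all 3 numbers, as were 8 of the chaperones (61.5%), against 14.8% of all genes. The KO cultures lay above the WT cultures without overlap in 5 cholesterol genes (20.8%) and 0 chaperones, against 3.32% of all genes. Macrophage and monocyte markers had a median of 0.14 (7 of 9), basophil and eosinophil markers −0.01 (3 of 7), and the 4 tested markers of other lineages 0.05. The neutrophil and precursor markers had a median of −0.26. Mitochondrially encoded genes had a fitted median of 1.07 with all 13 positive, but 1.98, −0.81 and −0.64 within numbers 4120, 414 and 6110. Of all genes on these lists, 0 were called in the interaction.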

How the data were processed

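BMMC were profiled by RNA-seq, and the 12 libraries at levels 20 and 60 were compared, 3 in each group. The authors deposited a table of 45777 genes with a read count, an FPKM and a TPM for each library, per the file headers. Per the submitters' processing notes, the tools were HISAT2 2.1.0, StringTie 2.1.3b, bcl2fastq 2.20.0 and FastQC 0.11.7, with the build mm10; strand is not given in the sources used here. All 54 value columns were mapped to libraries by name. Total counts of the 12 libraries ran from 21468695 to 42265435, so counting error is small for all but low genes.

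The deposited counts were filtered with filterByExpr, scaled with TMM and fitted with 1 mean per group in edgeR 4.0.16 (quasi-likelihood test) under R 4.3.3, with Benjamini-Hochberg adjusted p under 0.05 over all genes as the threshold. CPM use TMM-scaled library sizes. For single genes an exact permutation test was also run on the change in log2(CPM + 0.5) over 3 KO and 3 WT cultures. The members, the 23 gene lists and the rules were chosen with earlier results of these data known. Named genes are the 10 with the smallest p among genes averaging 5 CPM or more in some group, the 5, 3 or 2 most abundant tested members of each list, the 12 largest early rises, Sirt6 and Lyz2. Other genes that appear in the text were chosen after their values were seen.

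Replicate numbers were checked for pairing by the correlation of deviations from the group means. KO at 20 and 60 correlated at 0.62, 0.39 and 0.51 in numbers 4120, 414 and 6110, so they are paired. Between the genotypes the limit of 0.1 was passed at 60 (0.43, 0.52 and 0.50) and by KO at 20 with WT at 60 (0.29, 0.13 and 0.31). It was not passed by WT at 20 and 60 (0.13, 0.068 and 0.67), by the genotypes at 20 (0.23, 0.024 and 0.39) or by KO at 60 with WT at 20 (−0.024, −0.24 and 0.45). Since not all pairs of the 4 groups passed, the interaction was fitted without a block, and the blocked fit is given beside it as an alternative. No library was a copy of another of its group, and pairs across groups were not compared. Alternatives were DESeq2 1.42.0, limma 3.58.1 with voom or on log2 of the deposited TPM and FPKM, other scalings and filters, blocks, a mitochondrial covariate, and libraries left out. The analysis was tested on simulated data. Gene IDs of 16401 of the 16444 genes tested (99.7%) were found in RefSeq, which gave positions and promoter windows in GRCm38.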

Additional observations from a re-analysis of the deposited data

Results flagged for a closer look

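Among the early transcripts and the genes named by rule, 5 were higher at 60 than at 20 in every KO culture and lower in every WT culture. This concerns Gem (interaction log2 2.54), the MAP kinase kinase kinase gene Map3k8 (1.95), the Sprouty inhibitor gene Spry1 (2.02), Gmppb, which encodes a subunit of the enzyme that makes GDP-mannose (1.17), and Tmem88 (1.33). All 5 are early transcripts. The difference was tested for each, and 0 of them passed edgeR at an adjusted p of 0.05. They were picked for their signs, which place the 3 KO cultures above the 3 WT cultures. Over all 16444 genes tested, 62 had this arrangement of signs and 73 had the opposite one. Spry1 held between 0.628 and 5.41 CPM and Tmem88 between 1.26 and 6.04 CPM over the 12 libraries, so both rest on low counts. Gmppb overlaps Rnf123 and Tmem88 overlaps Naa38 in the annotation, so their values are uncertain.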

How the results depend on the processing

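The interaction had 0 calls in every alternative run, edgeR, DESeq2 and limma included, with between 38 and 377 genes at an unadjusted p under 0.05. The replicate numbers passed the pairing limit in some pairs of groups only, and with the replicate block 0 genes were called too, with 233 at an unadjusted p under 0.05. The median interaction over early transcripts (0.88) was between 0.72 and 1.03 under the other alternatives with all libraries. With early transcripts called from the other numbers it was 0.82 in number 4120, 1.38 in 414 and 0.65 in 6110, alternatives added after the data were seen. With libraries or numbers left out it ran from 0.61 (without WT at 60 of 414) to 1.22 (without WT at 60 of 6110). Scaling by library size alone moved the median of all genes to −0.12 and log2(TPM + 0.1) moved it to −0.12, with medians over early transcripts of 0.80 and 0.82. The early transcripts numbered 97 at a log2 rise of at least 2, and 53 to 202 with libraries or numbers left out, lowest without number 414 and 83 without number 4120. Of all 91 named genes 21 had the smallest permutation p, and 21 had it at pseudocounts of 0.1 and 2 CPM.

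The arms depended on the method. Calls in KO (134), WT (67) and over both genotypes (657) were 23, 20 and 260 with library size alone and 587, 331 and 1373 with DESeq2. They were 648, 302 and 1871 in limma-voom with the culture as a random effect. With the replicate block they were 360, 154 and 1170, and with a replicate block for each culture 380, 174 and 1356. With limma on log2(TPM + 1) they were 3, 20 and 118, on log2(TPM + 0.1) 3, 18 and 126, and on log2(FPKM + 1) 28, 35 and 241. At an adjusted p of 0.01 they were 23, 8 and 191, and at 0.10 they were 273, 107 and 1098. Without the 3 libraries with a high mitochondrial share, an alternative added after the data were seen, KO had 88 and WT 7. With libraries or numbers left out they ran from 0 to 148, 0 to 64 and 87 to 591. The cause of these differences was not tested. In the last, the number of samples and the choice of libraries changed together.

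Of the values of single named genes under alternatives, 2964 moved by less than their standard error and 36 by more, and 0 became a call.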
